A study of Mus musculus with 10 samples.

Results

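Long intergenic non-coding RNAs (lincRNAs) are transcripts read from the stretches between protein-coding genes. The 310 described here are the genes of biotype lincRNA in GENCODE mouse release M21 whose level averaged at least 1 CPM (the count over the library's total count, scaled to a total of 1000000) over the 10 libraries. They were drawn from 5606 lincRNA genes in a table of 57010 genes, of which 1896 had any count. The members were thus chosen by biotype and measured level, with no regard to group, and the abundance of the 310 is a description and not a finding. Just inside the limit lay Gm9484, 1110019D14Rik and Gm11110, each at 1.01 CPM, and just outside it Gm16499 and Gm26779 at 0.989 CPM and C230024C17Rik at 0.981 CPM.

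The libraries were made from total RNA of whole retinas of mice that were 6 to 8 weeks old. AAV2-GFP, a vector made from adeno-associated virus (AAV) with a green fluorescent reporter, was injected into the vitreous of 5 mice, and AAV206-GFP, the same reporter in a capsid named AAV206, into 5 others. Retinas were collected at 14 days, and 1 library from each mouse was sequenced. Both groups carried vector and reporter and both had been injected, so every difference below is between 2 vectors and not between injected and untreated retina. The strain, the sex, the vector dose and the promoter that drove the reporter are not given in the sources used here. A retina holds many cell types, and in such bulk samples more cells of a type and more RNA per cell cannot be told apart.

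Many lincRNAs are spliced and polyadenylated like messenger RNAs but stay in the nucleus, and most are expressed at lower levels and in fewer cell types than coding genes. Some act as scaffolds of nuclear bodies, such as Malat1 in nuclear speckles and Neat1 in paraspeckles. Others are hosts from which microRNAs or small nucleolar RNAs are cut, and many have no known function and carry only a clone name (Rik) or a predicted-gene name (Gm).

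Each library held between 10989843 and 12752604 counts, so that 3 counts, the limit that a count of 0 allows, stood for 0.235 to 0.273 CPM. Among marker lists of retinal and other cells, summed rod markers ran from 53046 to 55995 CPM in the AAV2-GFP libraries and from 57370 to 61641 CPM in the AAV206-GFP libraries, with 2 of 8 genes higher. Summed cone markers ran from 849 to 921 and from 941 to 982 CPM, with 2 of 7 genes higher and 1 lower. The bipolar, ganglion cell and pigment epithelium sums overlapped between groups, with 1 gene lower in each list. The endothelial sums overlapped too, with 1 gene higher and 2 lower. Summed erythrocyte markers ran from 67.6 to 87.0 and from 99.7 to 319 CPM, with 4 of 5 genes higher and 0 lower, and summed lens markers from 15.8 to 37.1 and from 1.77 to 17.8 CPM, with 2 of 4 tested genes lower. Interferon response genes, of which 6 of 9 tested were lower in AAV206-GFP, summed to 465 and 635 CPM in AAV2-GFP replicates 1 and 4, against 94.2 to 166 CPM in the other 3 AAV2-GFP libraries and 94.4 to 121 CPM in the AAV206-GFP libraries. AAV2-GFP replicate 1 also held 282 CPM of microglia and macrophage markers and 54.8 CPM of lymphocyte markers, against at most 56.8 and 2.07 CPM elsewhere. No gene of these lists was at 0 in all libraries. The part of these cells in the lincRNA results was not tested beyond leaving out replicates 1 and 4.

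Of the 310 lincRNAs, 307 passed the filter on low counts and were tested. In AAV206-GFP 23 of them were higher (7.49%) and 8 were lower (2.61%) at an adjusted p of 0.05, 31 in all (10.1%). Over all 15539 tested genes the same test called 1747 genes (11.2%), 924 of them higher (5.95%) and 823 lower (5.3%). The overall share called was therefore close to that of all genes. The higher calls outnumbered the lower ones among the lincRNAs, and whether that split differs from that of other genes was not tested. Antisense genes at 1 CPM or more had 23 higher (6.63%) and 4 lower (1.15%) of 347 tested. Processed transcripts at that level had 22 higher (9.82%) and 6 lower (2.68%) of 224. Protein-coding genes at that level had 805 higher (6.0%) and 771 lower (5.74%) of 13421.

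At least 2-fold changes past the threshold were seen for 12 lincRNAs that rose (3.91%, against 0.952% of all tested genes) and for 1 that fell (0.326%, against 0.669%). Of the 12, 4 averaged under 1 CPM in AAV2-GFP and so entered only through AAV206-GFP. Among genes with at least 1 CPM in both groups, 8 of 278 lincRNAs rose (2.88%, against 0.689% of all tested genes) and 1 fell (0.36%, against 0.56%). Other non-coding biotypes at 1 CPM or more had 12 higher (3.46%) and 1 lower (0.288%) among antisense genes and 7 higher (3.12%) and 3 lower (1.34%) among processed transcripts. The median log2 fold change of the 307 was 0.05, with 171 of them above 0, and that of all tested genes was -0.0095. The values ran from -1.29 to 2.50, and the median size without regard to sign was 0.27 for the lincRNAs and 0.16 for all genes. The lincRNAs stood at lower levels, with 90 of 307 at 10 CPM or more against 10332 of 15539 genes. In that bin the median sizes were 0.18 for the lincRNAs and 0.13 for all genes. They were 0.33 and 0.25 between 2 and 10 CPM, and 0.347 and 0.355 between 1 and 2 CPM. The shares of 2-fold changes were not compared by level. The groups did not overlap in any library for 34 of the 307 (11.1%, against 9.82% of all tested genes), among them 17 of the 23 higher and 7 of the 8 lower calls.

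The 20 lincRNAs that averaged under 1 CPM in AAV2-GFP, and the 12 that did so in AAV206-GFP, entered only through the group where they were higher. E230001N04Rik, Gm43625, Gm35721 and Gm35256 were calls of that kind, all higher in AAV206-GFP. Of the 278 lincRNAs at or above 1 CPM in both groups, 27 were called, 19 higher and 8 lower. The 3 that were not tested were 4933433G15Rik, 9330175E14Rik and A130077B15Rik, at 1.02, 1.26 and 1.09 CPM.

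The number of lower calls depended on single libraries. It was 2 without AAV2-GFP replicate 4, 5 without AAV2-GFP replicate 3, 4 without AAV206-GFP replicate 2, and 5 without AAV206-GFP replicate 3 or replicate 5. It rose to 11 without AAV2-GFP replicate 1 and to 10 without AAV2-GFP replicate 2. Without AAV2-GFP replicate 4 alone, 18 lincRNAs were higher. With AAV2-GFP replicates 1 and 4 both left out, 18 lincRNAs were higher and 2 lower, and 18 of the original 31 calls were among these 20. The number of higher calls stayed between 16 and 27 when any 1 library was left out. Of the 31 called lincRNAs, 17 passed in every alternative of library choice, scaling, filter and test that could be run for them, 13 of these in 20 alternatives and 4 in 19, since the stricter filter removed those 4. A further 14 lost the call in at least 1, and 0 changed direction.

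**Figure D1:**
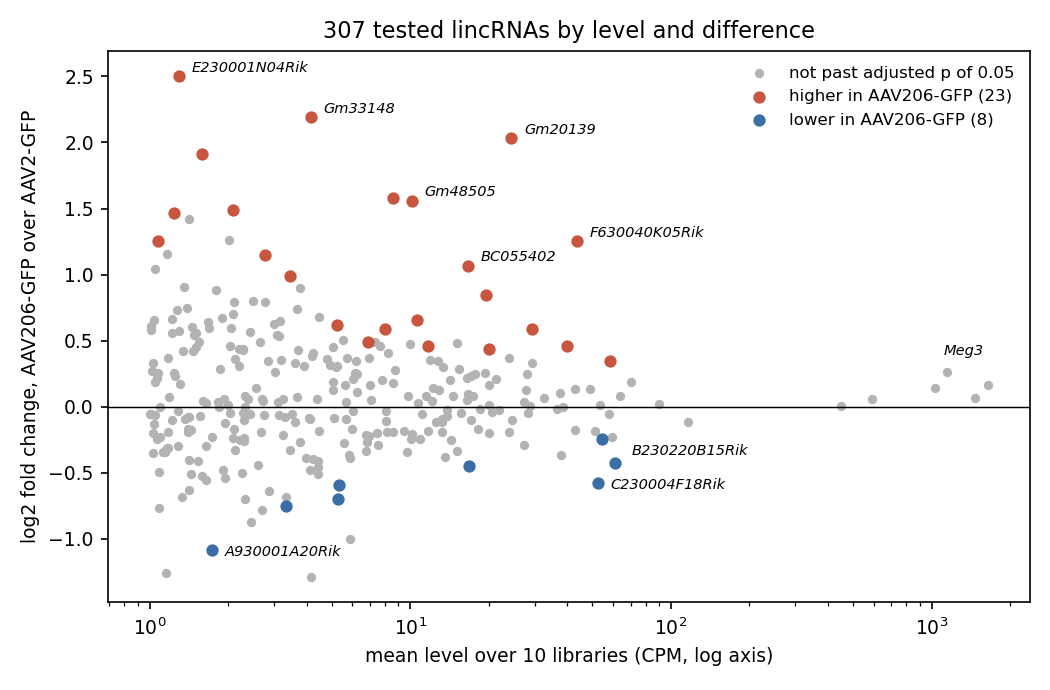
Mean level over the 10 libraries (CPM, log axis) against log2 fold change of AAV206-GFP over AAV2-GFP for the 307 tested lincRNAs; each point is a gene, coloured where it passed an adjusted p of 0.05. The 23 higher lincRNAs reach 2.50 on the log2 scale, while the 8 lower ones reach -1.08.

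The most abundant lincRNAs are not among the coloured points of that plot, and the largest differences lie at low and middle levels. Calls were made for 15 of 90 tested lincRNAs at 10 CPM or more (16.7%, against 13.4% of all tested genes at that level), 11 higher and 4 lower. Between 2 and 10 CPM 11 of 133 were called (8.27%, against 8.34%), and between 1 and 2 CPM 5 of 84 (5.95%, against 4.18%). Of these 5, 4 were higher and 1 was lower. The 4 higher ones averaged under 1 CPM in AAV2-GFP and so entered only through AAV206-GFP. Precision fell with level. The median standard error (SE) of the log2 fold change was 0.12, 0.23 and 0.34 in these bins, and the median coefficient of variation within AAV2-GFP was 11%, 22.8% and 34.4%.

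The 8 lincRNAs with the largest increases and no overlap between groups were E230001N04Rik, Gm33148, Gm20139, Gm43625, B230303O12Rik, Gm48505, Gm26912 and Gm35721. No function is stated here for these loci, which are known mainly by their place in the genome. Their values are given by library, followed by the log2 fold change from the model and its adjusted p over all tested genes. All 8 kept their call when any 1 library was left out. E230001N04Rik, Gm43625 and Gm35721 averaged under 1 CPM in AAV2-GFP and so entered only through AAV206-GFP. For them the separate groups are a description and no added support.

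E230001N04Rik (ENSMUSG00000066170, chr17:28522720-28525398, plus strand, GRCm38) had the largest fitted increase of all 307. Its level was 0.18, 0.355, 0.784, 0.243 and 0.341 CPM in AAV2-GFP replicates 1 to 5 and 2.46, 1.36, 2.84, 1.69 and 2.75 CPM in AAV206-GFP replicates 1 to 5. Every AAV206-GFP library lay above every AAV2-GFP library, although 2 of the AAV2-GFP values stood for 3 counts or fewer. The log2 fold change was 2.50 (SE 0.39, adjusted p = 0.000881). The gene starts near Fkbp5, described with the neighbours.

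Gm33148 (ENSMUSG00000110125, chr7:142591744-142620804, plus strand) lies near Igf2, the imprinted growth factor gene. It measured 1.35, 1.33, 1.33, 0.81 and 2.64 CPM in AAV2-GFP and 7.97, 7.83, 5.08, 8.54 and 4.66 CPM in AAV206-GFP. The lowest AAV206-GFP library was above the highest AAV2-GFP library, and the log2 fold change was 2.19 (SE 0.28, adjusted p = 0.000176).

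Gm20139 (ENSMUSG00000111052, chr10:19141751-19206702, plus strand) had the smallest p of all the lincRNAs. It measured 11.4, 11.8, 8.63, 8.02 and 8.44 CPM in AAV2-GFP and 35.5, 39.9, 42.6, 44.9 and 33.0 CPM in AAV206-GFP. The groups stood far apart relative to the spread within them, with means of 9.65 ± 1.78 and 39.2 ± 4.95 CPM (SD, n = 5 each). The fold change was 4.08 (log2 2.03, SE 0.13, adjusted p = 9.89e-08).

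To show what lies at the starts of these 3 genes, the RefSeq promoter of each is printed, running 5′ to 3′ on the gene's strand from 250 bases before to 50 bases after its RefSeq start on GRCm38.p6. The windows are chr17:28522406-28522705, chr7:142591409-142591708 and chr10:19141499-19141798, all on the plus strand, and the RefSeq starts lie 64, 85 and 2 bases from those of M21. RefSeq gives further starts for Gm33148, of which the first is shown. Capitals mark matches, on either strand, to any of 4 motifs: TATAAA (the TATA box), TGACGTCA (the cAMP response element), TAATCC (a core bound by the photoreceptor factor CRX) and GAAA repeated after any 2 bases (the core of interferon response elements).
E230001N04Rik: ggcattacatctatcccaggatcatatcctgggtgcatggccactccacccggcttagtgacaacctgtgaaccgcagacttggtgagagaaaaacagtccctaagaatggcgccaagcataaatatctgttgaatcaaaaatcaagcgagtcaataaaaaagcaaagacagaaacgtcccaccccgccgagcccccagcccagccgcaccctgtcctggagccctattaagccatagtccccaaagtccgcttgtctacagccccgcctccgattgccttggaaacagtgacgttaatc
Gm33148: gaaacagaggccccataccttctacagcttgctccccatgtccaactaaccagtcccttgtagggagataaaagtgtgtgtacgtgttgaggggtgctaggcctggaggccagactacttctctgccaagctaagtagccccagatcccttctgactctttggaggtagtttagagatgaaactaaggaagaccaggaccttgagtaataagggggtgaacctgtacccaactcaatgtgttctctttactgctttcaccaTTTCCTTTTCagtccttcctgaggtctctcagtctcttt
Gm20139: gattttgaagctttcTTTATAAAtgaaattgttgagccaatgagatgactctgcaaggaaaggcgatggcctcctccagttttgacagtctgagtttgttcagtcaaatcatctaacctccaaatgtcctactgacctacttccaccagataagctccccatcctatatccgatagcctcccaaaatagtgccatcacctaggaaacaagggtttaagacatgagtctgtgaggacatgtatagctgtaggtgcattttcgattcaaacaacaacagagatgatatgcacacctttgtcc
The 3 windows share no motif. That of E230001N04Rik held no match, that of Gm33148 held the repeated GAAA on the minus strand, and that of Gm20139 held TATAAA on both strands in overlapping letters. In Gm20139 the match lies near the 5′ end of the window, far before the RefSeq start.

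A promoter was found in the RefSeq table for 141 of the 310 lincRNAs. TATAAA was present in 14.2% of the 141 and in 14.2% of 27025 promoters, and the median GC content was 53.3% and 52.7%. The other motifs ranged more widely, and the differences were not tested. TGACGTCA was present in 5.67% (8 promoters) against 1.88%, TAATCC in 11.3% (16 promoters) against 7.16%, and the repeated GAAA in 2.84% (4 promoters) against 3.49%. Among the 10 lincRNAs that were higher and had a promoter in the table, 2 held TATAAA, 1 held TAATCC, 1 held the repeated GAAA and 0 held TGACGTCA. A match of letters is a description of the window and does not show that a factor binds there.

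Gm43625 and B230303O12Rik are neighbours on the minus strand of chromosome 5, 8442 bases apart. B230303O12Rik (ENSMUSG00000106547, chr5:146188620-146194809) measured 3.42, 3.72, 3.76, 5.18 and 5.37 CPM in AAV2-GFP and 14.2, 15.1, 10.9, 14.7 and 9.32 CPM in AAV206-GFP. Gm43625 (ENSMUSG00000105636, chr5:146203251-146204789) measured 0.991, 0.709, 0.235, 1.13 and 0.256 CPM and 2.63, 3.46, 2.50, 2.67 and 1.33 CPM. Both were higher in every AAV206-GFP library, with log2 fold changes of 1.58 (SE 0.18, adjusted p = 4.99e-05) and 1.91 (SE 0.41, adjusted p = 0.0071). In both, AAV206-GFP replicate 5 was the lowest of its group. They formed the only pair of called lincRNAs among 29 pairs within 50 kb of each other.

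Gm48505 (ENSMUSG00000112264, chr10:96495721-96523982, minus strand) measured 5.77, 5.67, 5.33, 3.24 and 5.80 CPM in AAV2-GFP and 18.5, 13.5, 15.7, 15 and 13.2 CPM in AAV206-GFP. Its lowest AAV206-GFP library was above all AAV2-GFP libraries, and the log2 fold change was 1.56 (SE 0.16, adjusted p = 2.54e-05). Gm26912 (ENSMUSG00000097832, chr12:110842276-110845216, minus strand) measured 1.26, 0.709, 1.65, 0.891 and 0.938 CPM and 2.54, 4.37, 2.76, 3.29 and 2.41 CPM. Its groups were also separate, with a log2 fold change of 1.49 (SE 0.29, adjusted p = 0.0038). For Gm35721 (ENSMUSG00000112143, chr10:76964653-77008569, minus strand) the values were 0.811, 0.709, 0.627, 0.729 and 0.426 CPM and 2.37, 1.82, 1.98, 0.89 and 2.08 CPM. AAV206-GFP replicate 4 lay just above the highest AAV2-GFP library, and the log2 fold change was 1.46 (adjusted p = 0.0116).

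**Figure D2:**
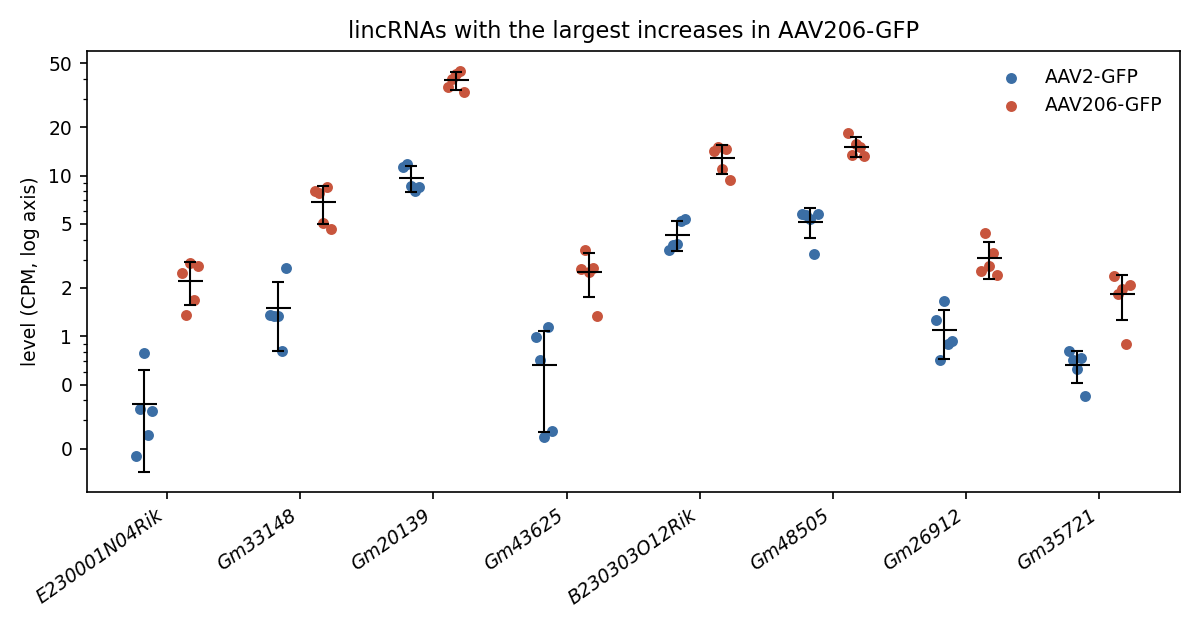
Level (CPM, log axis) of the 8 lincRNAs with the largest increases; points are libraries, and bars are mean and SD of the 5 libraries of a group. In each gene all AAV206-GFP points lie above all AAV2-GFP points, and Gm20139 rises from a mean of 9.65 to 39.2 CPM. E230001N04Rik, Gm43625 and Gm35721 averaged under 1 CPM in AAV2-GFP and entered only through AAV206-GFP.

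Further lincRNAs that rose are named here after their values were seen, because they combine a higher level with a clear difference. F630040K05Rik (ENSMUSG00000097727, chr17:45734506-45788594, plus strand) measured 36.4, 27.1, 21.7, 22.6 and 22.0 CPM in AAV2-GFP and 74.9, 58.8, 51.2, 65.4 and 57.0 CPM in AAV206-GFP. Replicate 1 was the highest library of either group, the groups did not overlap, and the log2 fold change was 1.25 (SE 0.14, adjusted p = 3.63e-05). BC055402 (ENSMUSG00000101429, chr1:57200645-57214993, minus strand) had a narrow spread, with 9.38 to 12.2 CPM in AAV2-GFP and 19.7 to 23.9 CPM in AAV206-GFP (log2 fold change 1.07, SE 0.10, adjusted p = 1.61e-05). 5930430L01Rik rose from 14 ± 2.79 to 25 ± 3.41 CPM (0.85, SE 0.14, adjusted p = 0.0013). A930006I01Rik moved less but varied least, from 51.6 ± 0.621 to 65.3 ± 4.10 CPM (0.35, SE 0.06, adjusted p = 0.0023). The calls of these 4 did not depend on any 1 library.

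Other increases were smaller or less secure. Gm49745 lost its call without AAV206-GFP replicate 4 (adjusted p = 0.0569), its highest library. Gm35256, Gm44053, 1700096K18Rik, 2610035D17Rik and A330074K22Rik had log2 fold changes of 1.25, 0.99, 0.62, 0.46 and 0.59 and adjusted p-values of 0.0414, 0.0362, 0.0412, 0.0282 and 0.0284. Each of these 5 lost its call in 4 to 9 of the 10 fits with a library removed, with adjusted p-values of at most 0.108.

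The 7 lincRNAs that fell with no overlap between groups did so by less than the leading increases. They were B930059L03Rik, 2810455O05Rik, Gm32618, C230004F18Rik, Gm47543, B230220B15Rik and Gm43597. An eighth, A930001A20Rik, fell with overlapping groups (-1.08, adjusted p = 0.0439), and its call was lost in 6 of the 10 fits without a library.

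C230004F18Rik (ENSMUSG00000071753, chrX:61116378-61292484, plus strand) lies across Cdr1, the gene on the opposite strand whose antisense transcript gives a circular RNA of neurons. It measured 67.9, 59.6, 62.7, 68.0 and 56.8 CPM in AAV2-GFP and 33.9, 56.0, 43.4, 41.1 and 36.2 CPM in AAV206-GFP. AAV206-GFP replicate 2 came close to the lowest AAV2-GFP library without reaching it. The level fell by 0.58 on the log2 scale (SE 0.11, adjusted p = 0.00359). Its counts had decimals in 7 libraries, as estimators that divide reads between genes can give, and the deposited counts do not tell linear from circular RNA.

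B230220B15Rik (ENSMUSG00000114627, chr13:107996285-108004669, plus strand) overlaps Ndufaf2, an assembly factor of respiratory complex I, on the opposite strand. It measured 63.6, 68.5, 79.4, 66.2 and 71.7 CPM in AAV2-GFP and 46, 50.5, 53.0, 54.9 and 54.5 CPM in AAV206-GFP. All AAV206-GFP libraries were below all AAV2-GFP libraries, and the level fell by 0.43 (log2, SE 0.07, adjusted p = 0.00177). Its counts had decimals in all 10 libraries, and whether reads were shared with Ndufaf2 was not tested. C230004F18Rik and B230220B15Rik were the 2 lower calls that remained with AAV2-GFP replicates 1 and 4 left out.

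Gm43597 (ENSMUSG00000107096, chr5:150599932-150607003, minus strand) measured 56.0, 61.0, 58.9, 59.9 and 59.0 CPM in AAV2-GFP and 52.4, 45.8, 47.3, 53.0 and 49.95 CPM in AAV206-GFP. The change was the smallest of the 7, with a log2 fold change of -0.24 (SE 0.06, adjusted p = 0.0233). Gm47543 (ENSMUSG00000111682, chr9:49954878-49956554, plus strand) went from 18.3, 20.04, 20.4, 19.9 and 18.7 CPM to 10.8, 12.6, 16.2, 16.5 and 14.8 CPM. The AAV206-GFP libraries were lower and more spread, and the log2 fold change was -0.45 (SE 0.12, adjusted p = 0.0248). Gm43597 lost its call without AAV2-GFP replicate 4 or 5 or without AAV206-GFP replicate 2 or 3 (adjusted p up to 0.0681), and Gm47543 without AAV2-GFP replicate 4 (0.0564) or AAV206-GFP replicate 2 (0.0665).

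The other 3 were present at lower levels. 2810455O05Rik (ENSMUSG00000085030, chr8:123838553-123840785, minus strand) measured 5.86, 5.67, 7.14, 7.53 and 6.57 CPM in AAV2-GFP and 3.39, 4.19, 3.62, 5.16 and 3.75 CPM in AAV206-GFP, with a log2 fold change of -0.70 (SE 0.17, adjusted p = 0.0167). Without AAV2-GFP replicate 4 its adjusted p was 0.0525. Gm32618 (ENSMUSG00000115317, chr15:32778904-32796006, plus strand) averaged 6.41 ± 0.626 and 4.23 ± 0.763 CPM, a log2 fold change of -0.59 (SE 0.17, adjusted p = 0.0341). B930059L03Rik (ENSMUSG00000113361, chr12:110590512-110592700, plus strand) averaged 4.2 ± 0.87 and 2.48 ± 0.52 CPM, a log2 fold change of -0.75 (SE 0.22, adjusted p = 0.0399). Gm32618 and B930059L03Rik passed in 4 and 3 of the 10 fits with a library removed, with adjusted p-values of up to 0.0795 and 0.101 in the others.

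**Figure D3:**
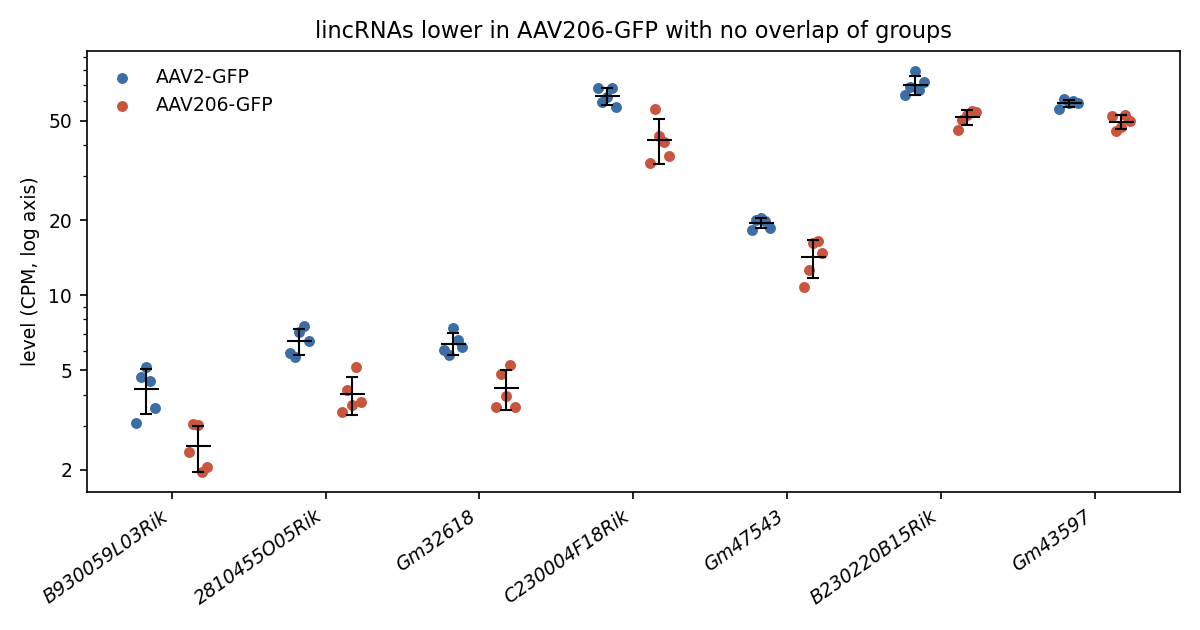
Level (CPM, log axis) of the 7 lincRNAs that were lower in AAV206-GFP with no overlap between groups; points are libraries, and bars are mean and SD of the 5 libraries of a group. The differences are narrow, from a log2 fold change of -0.24 in Gm43597 to -0.75 in B930059L03Rik.

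The abundant lincRNAs showed no difference past the threshold. Malat1, the speckle RNA, measured 2387, 1914, 998, 1089 and 1372 CPM in AAV2-GFP and 1814, 1942, 1308, 1995 and 1615 CPM in AAV206-GFP. The groups overlapped widely, AAV2-GFP alone spanned more than AAV206-GFP, and the log2 fold change was 0.16 (SE 0.20, adjusted p = 0.620). Meg3, the maternally expressed RNA of the imprinted Dlk1-Dio3 locus, measured 1047, 1182, 861, 1003 and 1129 CPM and 1420, 1205, 1082, 1399 and 1154 CPM. It came nearest to the threshold, with a log2 fold change of 0.27 (SE 0.09, adjusted p = 0.0713). Its adjusted p was 0.0377 without AAV2-GFP replicate 2 and 0.0373 in DESeq2.

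Both miR-124 host genes of the list, precursors of a microRNA abundant in neurons, stood at similar levels in the groups. Mir124a-1hg averaged 1435 ± 145 and 1499 ± 183 CPM (adjusted p = 0.649), and Mir124-2hg 980 ± 51.3 and 1079 ± 129 CPM (adjusted p = 0.189). 1700020I14Rik, the mouse Cyrano RNA, averaged 580 ± 55.7 and 603 ± 52.4 CPM (adjusted p = 0.651). The steadiest of the 8 was 2900097C17Rik, the mouse form of Norad, an RNA that binds Pumilio proteins. It measured 438, 433, 453, 477 and 453 CPM in AAV2-GFP and 437, 437, 460, 464 and 454 CPM in AAV206-GFP, a log2 fold change of 0.01 (SE 0.05, adjusted p = 0.960). Rncr4, a retinal non-coding RNA, averaged 121 ± 19.5 and 112 ± 19 CPM, and Gm37494 89.9 ± 7.60 and 90.6 ± 10.4 CPM, neither past the threshold.

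**Figure D4:**
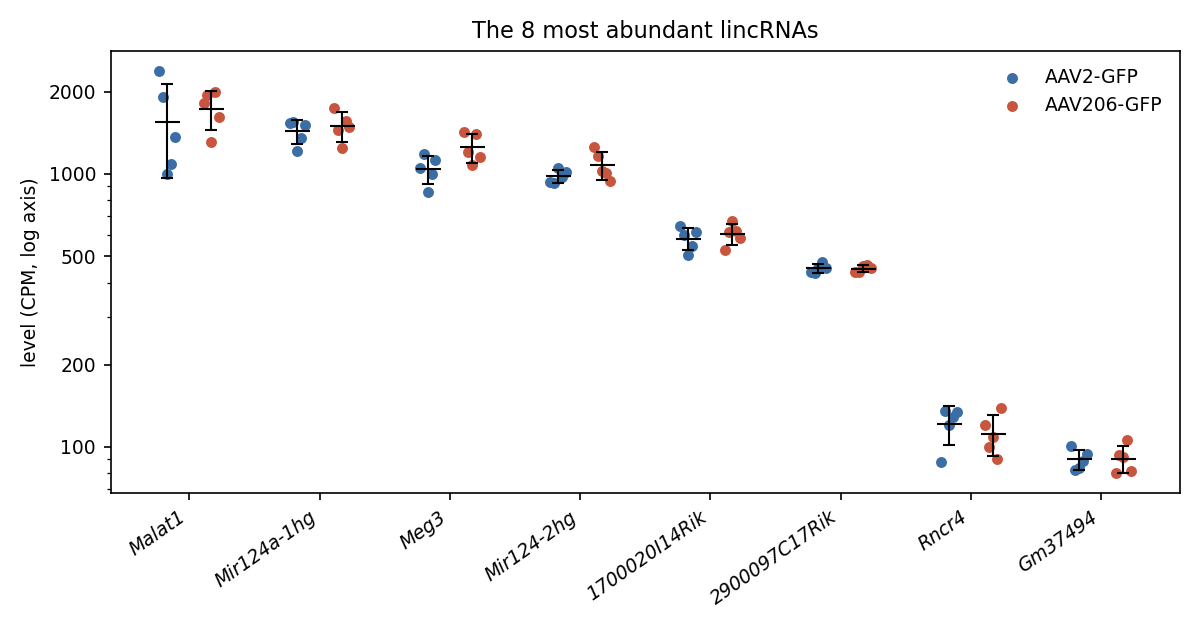
Level (CPM, log axis) of the 8 most abundant lincRNAs; points are libraries, and bars are mean and SD of the 5 libraries of a group. The groups overlap in all 8, and the AAV2-GFP libraries of Malat1 span 998 to 2387 CPM.

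Per kilobase of exon the order of the abundant lincRNAs changed. Mir124a-1hg led with 305 CPM per kilobase, followed by Malat1 with 235, Mir124-2hg with 171, 2900097C17Rik with 91.7, 1700020I14Rik with 71.2 and Meg3 with 63.5. Exon lengths were taken from M21 and may differ from those behind the counts. Abundance was concentrated in these genes. The 6 highest held 63.4% to 70.2% of all lincRNA counts in a library, 7 lincRNAs reached 100 CPM, 90 reached 10 CPM, and the median of the 310 was 4.13 CPM.

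The 310 lincRNAs together took 0.995%, 0.951%, 0.802%, 0.832% and 0.898% of all counts in AAV2-GFP replicates 1 to 5 and 1.04%, 0.989%, 0.875%, 1.02% and 0.917% in AAV206-GFP. The groups overlapped, with means of 0.896% ± 0.0805 and 0.967% ± 0.0691 (SD, n = 5 each), a difference smaller than the SD within AAV2-GFP. Without the 6 highest the share was 0.291% ± 0.00373 and 0.305% ± 0.0104. The range between libraries of a group was therefore mostly that of Malat1 and the other abundant RNAs.

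Of 96 non-coding RNA genes listed by role or as otherwise studied, 88 are in the table and 25 belong to the 310. Among these 25, 3 were higher (Rmst, Otx2os1 and E230001N04Rik) and 0 lower, beside 5.95% higher and 5.3% lower over all tested genes. The lists were written with earlier results of these data known. E230001N04Rik averaged under 1 CPM in AAV2-GFP and so entered only through AAV206-GFP. The count of 3 is therefore a description and not a finding about the lists. Otx2os1 (ENSMUSG00000098682, chr14:48668708-48870683, plus strand) runs opposite Otx2, the homeobox gene of photoreceptors, bipolar cells and pigment epithelium. It measured 16.9, 19.2, 16.2, 17 and 15.8 CPM in AAV2-GFP and 24.1, 24.2, 23.6, 22.2 and 20.5 CPM in AAV206-GFP. The groups were separate, and the log2 fold change was 0.43 (SE 0.09, adjusted p = 0.00606). Its counts had decimals in all 10 libraries, and 9 annotated genes overlap it on the other strand. Whether strand was used in counting is not given in the sources used here, so its reads and theirs cannot be told apart. Otx2 itself had a log2 fold change of -0.16 (adjusted p = 0.057).

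Rmst (ENSMUSG00000112117, chr10:92071037-92165170, minus strand) is known as a partner of SOX2 in neural differentiation. It measured 5.86, 6.92, 6.27, 4.62 and 4.95 CPM in AAV2-GFP and 7.80, 7.37, 8.01, 8.01 and 8.74 CPM in AAV206-GFP. The groups did not overlap, but the log2 fold change of 0.49 (SE 0.15) passed narrowly (adjusted p = 0.0488). The call was kept only without AAV2-GFP replicate 2, and was lost without any of the other 9 libraries, with an adjusted p of up to 0.124.

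Among the 8 tested lincRNAs of the retinal and neural list, 2 were higher and the median log2 fold change was 0.18, beside 5.95% higher and a median of -0.0095 over all tested genes. Over any biotype the same list had 2 of 18 higher and a median of 0.0025. Miat, an RNA of retinal and brain neurons, averaged 65.6 ± 7.77 and 74.4 ± 9.56 CPM (adjusted p = 0.221). Lhx1os, divergent from the horizontal cell gene Lhx1, averaged 1.48 ± 0.497 and 1.31 ± 0.285 CPM (adjusted p = 0.755). Of the 5 nuclear-retained lincRNAs (Malat1, Neat1, Miat, Meg3 and Pvt1), none was called, and their median was 0.16.

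Neat1 and Pvt1 also stood in the list of immune and interferon RNAs, where they were the only 2 of the 310. Neat1, the paraspeckle scaffold, measured 48.8, 26.9, 23.4, 21.6 and 29.7 CPM in AAV2-GFP and 30.5, 23.5, 19.98, 18 and 30.1 CPM in AAV206-GFP (log2 fold change -0.29, adjusted p = 0.361). The highest value was in AAV2-GFP replicate 1, the library with the most microglia and lymphocyte marker RNA, whose part in the value was not tested. Pvt1, next to Myc, averaged 1.38 ± 0.494 and 0.799 ± 0.287 CPM (-0.77, adjusted p = 0.188).

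The 6 snoRNA host genes, spliced RNAs whose introns give small nucleolar RNAs, had a median log2 fold change of -0.25, with 0 called. Snhg20 averaged 42.5 ± 8.15 and 32.9 ± 7.08 CPM (-0.37, adjusted p = 0.115), and passed only without AAV2-GFP replicate 1 (adjusted p = 0.0437). Snhg18 averaged 4.82 ± 1.49 and 3.44 ± 0.843 CPM (-0.48, adjusted p = 0.224), and Snhg6 8.32 ± 1.56 and 6.78 ± 1.29 CPM (-0.29, adjusted p = 0.276). Snhg10, Epb41l4aos and Snhg12 had log2 fold changes of -0.21, -0.19 and 0.05. Outside the 310 the list holds Snhg17, of another biotype and named after its values were seen, which was higher (16.7 ± 1.67 and 21.3 ± 1.77 CPM, 0.35, adjusted p = 0.0302).

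None of the 310 in the imprinted and X-linked lists passed the threshold. Xist, a lincRNA of the X-linked list, averaged 0.634 CPM, under the limit of 1 CPM, and was not tested. Besides Meg3 the imprinted cluster gave Mirg, at 7.50 ± 1.78 and 6.41 ± 1.02 CPM (-0.22, adjusted p = 0.458). Ftx and Jpx, both of the X inactivation centre, had log2 fold changes of -0.17 (adjusted p = 0.186) and 0.12 (adjusted p = 0.599). Firre, an X-linked nuclear RNA of another biotype and so outside the 310, was higher (145 ± 3.73 and 182 ± 16 CPM, 0.34, SE 0.06, adjusted p = 0.00264). It was named after its values were seen.

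Some of the lincRNAs carry microRNA hairpins. In RefSeq 52 hairpins lie inside 21 of the 310 on the same strand, 24 of them in exons, and the median log2 fold change of the 21 hosts was 0.17. The miR-124 hosts Mir124a-1hg and Mir124-2hg were not matched to a hairpin in this way. They are not among the 21, so these numbers leave out known hosts. A230057D06Rik, 4833445I07Rik and Rmst were the 3 of the 21 that rose, beside 5.95% of all tested genes, and 0 fell. The first 2 were named after their values were seen. The microRNAs themselves were not measured, so the values below are those of the host RNA. A selection of the mature RNAs of the 3 hosts, 1 arm of each hairpin and not all of the miR-344 family, is shown 5′ to 3′ from RefSeq (GRCm38.p6), with the seed, bases 2 to 8, in capitals, because the seed decides which targets a microRNA pairs with. The first 5 come from A230057D06Rik, the next 2 from 4833445I07Rik and the last 2 from Rmst.
mmu-miR-344d-3p: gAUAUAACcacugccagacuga
mmu-miR-344e-3p: gAUAUAACcaaagccugacuau
mmu-miR-344h-3p: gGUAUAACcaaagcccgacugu
mmu-miR-344-3p: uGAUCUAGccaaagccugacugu
mmu-miR-344c-3p: uGAUCUAGucaaagccugacagu
mmu-miR-191-5p: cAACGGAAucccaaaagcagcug
mmu-miR-425-5p: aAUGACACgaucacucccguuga
mmu-miR-135a-5p: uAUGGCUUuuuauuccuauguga
mmu-miR-1251-5p: aCUCUAGCugccaaaggcgcu
Within the miR-344 family miR-344d-3p and miR-344e-3p share the seed AUAUAAC, which miR-410-3p of Mirg also carries. miR-344-3p and miR-344c-3p share the seed GAUCUAG, so that a single host holds RNAs of several seeds.

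A230057D06Rik (chr7:61704519-61928690, minus strand) holds 7 hairpins of the miR-344 family in its introns. It measured 33.2, 32.4, 34.2, 33.8 and 35.2 CPM in AAV2-GFP and 50.3, 52.2, 44.3, 49.99 and 34.4 CPM in AAV206-GFP. AAV206-GFP replicate 5 lay within the AAV2-GFP range and the other 4 above it, and the log2 fold change was 0.46 (SE 0.09, adjusted p = 0.00593). 4833445I07Rik (chr9:108567533-108569174, plus strand) holds miR-191 and miR-425 in its exons. It averaged 6.42 ± 1.41 and 9.59 ± 0.826 CPM, with overlapping groups (0.59, SE 0.16, adjusted p = 0.0275), and its call was lost in 6 of the 10 fits without a library (adjusted p up to 0.0749).

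The hosts of miR-9, a microRNA of neural progenitors and Müller glia, give the same mature RNA from 3 loci.
mmu-miR-9-5p: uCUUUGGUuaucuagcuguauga
C130071C03Rik, with the hairpin in an exon, averaged 59.1 ± 5.87 and 56.6 ± 5.83 CPM (-0.06, adjusted p = 0.692). Gm3764 and Mir9-3hg, with the hairpin in an intron, had log2 fold changes of 0.22 (adjusted p = 0.387) and 0.44 (adjusted p = 0.332). None of the 3 passed the threshold. Mir17hg, host of the miR-17 cluster with 6 hairpins, averaged 6.45 ± 1.20 and 8.83 ± 1.40 CPM (0.46, adjusted p = 0.0852). Of the 8 lincRNAs on the microRNA host list 1 was higher, Rmst, and the median was 0.21.

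Although named intergenic, many of the 310 lie close to or across other genes in M21. The median distance to the nearest protein-coding gene was 4542 bases, 157 lay within 5 kb of one, and 47 overlapped one. For 108 of the 310 an annotated gene overlapped on the other strand, among them 12 of the 31 called (8 higher and 4 lower). Those 12 were E230001N04Rik, Gm26912, Gm35256, Otx2os1, A230057D06Rik, Rmst, 4833445I07Rik, A330074K22Rik, A930001A20Rik, 2810455O05Rik, C230004F18Rik and B230220B15Rik, and their values are uncertain to the extent that reads were shared. Decimals in the counts of any library marked 63 of the 310 and 4 of the 31 called, 1 higher and 3 lower.

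For 255 lincRNAs the nearest protein-coding gene was tested too, and 30 of those neighbours were called (11.8%, beside 11.2% of all genes). Across these 255 pairs the log2 fold changes of lincRNA and neighbour had a Pearson r of 0.01 and a Spearman rho of 0.08. This is a description across genes that share the same libraries. For the 27 lincRNAs that overlap their neighbour on the opposite strand, Pearson r was 0.52, 20 of 27 pairs had the same sign, and 5 neighbours were called. With the use of strand not given, shared reads alone could give such a likeness, and its part was not tested.

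Of 24 called lincRNAs with a tested neighbour, 3 had a neighbour that was called, each in the same direction. Over all 255 lincRNAs with a tested neighbour, 30 neighbours were called (11.8%), a share close to 3 of 24. E230001N04Rik lies 5193 bases from Fkbp5 and is read in the opposite direction, away from it. Fkbp5 encodes a co-chaperone of the glucocorticoid receptor and is a known glucocorticoid-responsive gene. It measured 22.7, 22.4, 22.6, 24.2 and 21.1 CPM in AAV2-GFP and 36.0, 32.0, 33.6, 38.5 and 38.8 CPM in AAV206-GFP. The groups were separate, with a log2 fold change of 0.67 (SE 0.08, adjusted p = 7.8e-05). Ndufaf2, overlapping B230220B15Rik, averaged 16.1 ± 2.26 and 10.6 ± 1.77 CPM (-0.60, SE 0.14, adjusted p = 0.0126). With AAV2-GFP replicates 1 and 4 left out its adjusted p was 0.0784.

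The third pair, named after its values were seen, was Gm48653 and Slc38a6, an amino acid transporter gene 1032 bases away on the same strand. Gm48653 measured 8.65, 8.42, 8.16, 9.23 and 6.91 CPM in AAV2-GFP and 15.9, 13.8, 11.9, 9.96 and 13.3 CPM in AAV206-GFP (0.66, SE 0.14, adjusted p = 0.00699). Slc38a6 averaged 24.3 ± 2.16 and 30.3 ± 3.60 CPM (0.33, adjusted p = 0.0400). The lincRNA lies downstream of the coding gene, and reads past the end of Slc38a6 cannot be told apart from its own.

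The neighbours of most other leading lincRNAs did not pass the threshold. Gm20139 lies 126094 bases from Tnfaip3, the gene of the NF-kB inhibitor A20, which had a log2 fold change of -0.18 (adjusted p = 0.167). Gm33148 lies 29962 bases from Igf2 (-0.07), Gm48505 93024 bases from Btg1 (-0.13), and Gm26912 1337 bases from Mok (-0.24). Gm35721 lies 2766 bases from Pcbp3 (0.14) and Gm43625 4403 bases from Rnf6 (0.06). The sign of Igf2 turned without AAV2-GFP replicate 1 (0.03). Among the lower lincRNAs, Gm43597 lies 1004 bases from N4bp2l2 (-0.19), B930059L03Rik 7450 bases from Ppp2r5c (-0.05), Gm32618 82563 bases from Sema5a (0.10) and Gm47543 155953 bases from Ncam1 (-0.05, 0.0021 without AAV2-GFP replicate 2). Cdr1, 1700001J03Rik and Gm20388, nearest to C230004F18Rik, B230303O12Rik and 2810455O05Rik, were not tested.

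**Figure D5:**
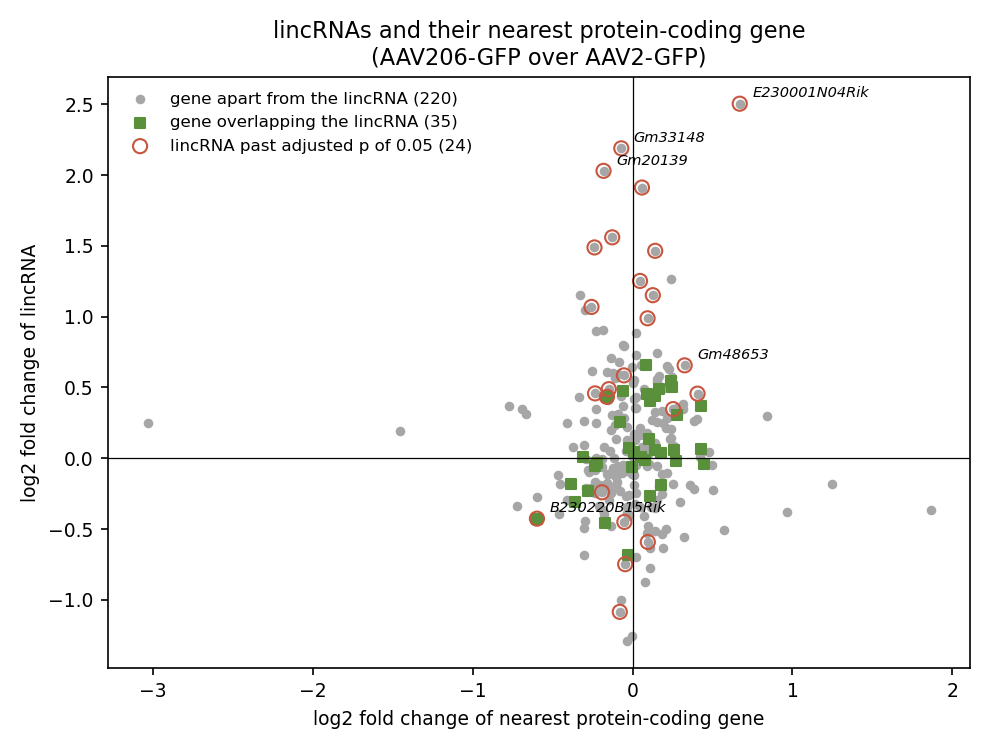
Log2 fold change (AAV206-GFP over AAV2-GFP) of the nearest protein-coding gene against that of the lincRNA, for 255 pairs; squares are pairs that overlap, and rings mark lincRNAs past an adjusted p of 0.05. Gm20139 and Gm33148 stand high above neighbours near 0, while E230001N04Rik is high beside a neighbour at 0.67.

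The spread between libraries of a group was alike in both, with a median coefficient of variation of 21.7% in AAV2-GFP and 21.9% in AAV206-GFP. In 21 lincRNAs 1 AAV2-GFP library, and in 14 lincRNAs 1 AAV206-GFP library, stood far from the other 4 by Dixon's ratio. That makes 35 of 620 gene and group combinations, where chance alone gives about 31. AAV2-GFP replicate 3 was the high library in 8 of them and AAV206-GFP replicate 1 in 5. By chromosome the most calls were 5 of 36 lincRNAs on chromosome 5, 4 of 15 on chromosome 10, 3 of 22 on chromosome 12 and 3 of 16 on chromosome 8, beside 10.1% of all tested lincRNAs.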

How the data were processed

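As deposited, each value is an estimated count of a gene in a library, with no scaling, and 5.95% of values have decimals. The submitters' processing notes name STAR 2.7.10b, RSEM 1.3.1 and mm10, with no role for each. Per the labels' protocols, an NEBNext Ultra RNA kit was used on total RNA, and pairs of 150 bases were read. The annotation release, the use of strand and any selection of polyadenylated RNA are not given in the sources used here. Of the 57010 identifiers, 52029 (91.3%) are in GENCODE M21, which gave biotypes, names, coordinates and exon lengths, so the gene models behind the counts may differ from those printed.

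The estimated counts were rounded to whole numbers, because the planned test had assumed whole counts. AAV206-GFP was compared with AAV2-GFP over all 10 libraries by edgeR 4.0.16 in R 4.3.3, with filterByExpr at a minimum count of 10, TMM scaling and a quasi-likelihood F test without covariates. Every adjusted p is Benjamini-Hochberg over the 15539 tested genes, and a call means an adjusted p under 0.05. Positive log2 fold changes denote higher levels in AAV206-GFP. Levels are CPM on the library total, as mean ± SD over 5 libraries. The procedure was run on simulated counts, drawn with the spread fitted to these data and with no library set apart. That run cannot show how the calls hold where single libraries differ from their group. DESeq2 1.42.0, limma-voom (limma 3.58.1), other scalings and filters, a replicate block and libraries left out served as alternatives.

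The lincRNAs and the gene lists were chosen with earlier results of these data known. Values are printed for the 8 largest increases and the 8 largest decreases with separate groups (7 decreases met this), the 8 highest levels, the listed genes, the genes at the limit of 1 CPM, and the nearest coding genes of those that changed; others are marked as chosen after their values were seen. No column was left out. The libraries came from separate mice, so each p-value sets the difference between groups against the spread between mice.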

Additional observations from a re-analysis of the deposited data

Results flagged for a closer look

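Among 116 combinations of a named gene and a group, 3 had a library whose gap to the nearest other library, over the range of the group, exceeded Dixon's 95% value of 0.71 for 5 samples. Chance alone gives about 1 in 20, or 5.8. E230001N04Rik stood at 0.784 CPM in AAV2-GFP replicate 3, against 0.18 to 0.355 CPM in the other 4 libraries (ratio 0.711). Gm48505 stood at 3.24 CPM in AAV2-GFP replicate 4, against 5.33 to 5.80 CPM (ratio 0.818). Gm49745 stood at 5.43 CPM in AAV206-GFP replicate 4, against 3.14 to 3.79 CPM (ratio 0.716).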

How the results depend on the processing

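Of the count of 8 lower lincRNAs, 2 were left with AAV2-GFP replicates 1 and 4 both left out, 4 with the replicate block and 5 among lincRNAs with whole counts in all libraries. Leaving out each library gave 2 to 11 lower and 16 to 27 higher lincRNAs. The 23 higher calls were between 18 and 30 in the other alternatives, 30 of them with DESeq2. The count over all tested genes, 1747, was 985 without those 2 libraries, 1085 with the block and 991 to 1912 when each library was left out; the cause was not tested. The median log2 fold change of the lincRNAs stayed at 0.04 to 0.07 in all alternatives. With the replicate block, 23 of the 31 calls were kept. Libraries of the same number did not deviate together (correlations of -0.042 to 0.025), and none correlated best with its own number. No sign of pairing by number was seen. These correlations pool all tested genes over 5 libraries in each group and cannot exclude a pairing.

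No called gene changed sign, and 8 genes that were not called did. When each library was left out, 2900097C17Rik ran from -0.0067 to 0.025, Gm37494 from -0.047 to 0.063, Snhg12 from -0.020 to 0.11, Lhx1os from -0.30 to 0.032, 1110019D14Rik from -0.35 to 0.18, Gm11110 from -0.24 to 0.12, Igf2 from -0.13 to 0.030 and Ncam1 from -0.088 to 0.0021. 2900097C17Rik was at -0.0014 on library size alone, and Igf2 at 0.087 without AAV2-GFP replicates 1 and 4. Depth limits the lincRNAs near 1 CPM, where 3 counts stand for 0.235 to 0.273 CPM.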
